A study of Mus musculus with 16 samples.

Results

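Tspo, the gene of the translocator protein of the outer mitochondrial membrane, lies on mouse chromosome 15, and the genes described here are its neighbours. They are the protein-coding genes of chromosome 15 that start between 80560000 and 86560000 (GRCm38, GENCODE M21 annotation), a window reaching about 3 Mb to each side of Tspo, with at least 10 counts in at least 4 of the 16 libraries. Tspo itself, Srebf2 and Ndufa6 were left out. This gave 79 genes of the 19449 listed for the series, 48 that start before Tspo and 31 that start after it. The annotation holds 96 such genes in the window, of which 86 were listed and 7 of those had too few counts; the other 10 were not analysed here. RNA was sequenced from the hippocampus of 3-month-old mice, in 4 groups of 4 libraries: wild type injected with PBS, wild type injected with LPS (lipopolysaccharide, an outer membrane molecule of bacteria that triggers inflammation), Tspo knockout (TSPOKO in the labels) injected with PBS, and Tspo knockout injected with LPS. Strain, sex, the dose of LPS, the interval after injection and the way Tspo was deleted are not given in the sources used here. Nothing states that the replicates of a group came from separate animals, so each p-value measures the spread between these libraries.

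A deletion can act on the genes around it. It can take out an enhancer or an insulator, join transcripts, or bring along DNA of the strain in which the allele was made, whose own variants then travel with the deleted gene through later crosses; such genes are called flanking or passenger genes. The usual check is whether genes next to the deleted one differ between knockout and wild type, and whether the difference shrinks with distance. A long stretch of carried DNA could cover the whole window, so its differences need not shrink with distance there. The neighbours of Tspo have no common function: they include tubulin-modifying enzymes, mitochondrial proteins, chromatin factors, chaperones and membrane proteins of neurons.

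Library totals ran from 30198619 to 50009041 counts, and the 79 neighbours took 0.511% to 0.554% of them. The 5 hippocampal neuron markers read (Prox1, Wfs1, Zbtb20, Neurod6, Snap25) were above 0 in every library, at a summed 2092 to 2737 CPM (counts relative to the scaled library size). Wild-type LPS replicate 1 stood apart from its group: its score for 4 LPS response genes was 0.71 (mean log2 CPM relative to wild-type PBS), against 4.87 to 4.98 in the other 3 wild-type LPS libraries and at most 0.24 in knockout LPS. The titles carry codes of unstated meaning, and within a treatment the genotypes share none, so code and genotype cannot be told apart.

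Of the neighbours, 60 have an entry in the RefSeq promoter table (build GRCm38.p6), with 83 start sites; Mcat, St13 and Shisal1, described below, have none. The 250 bases before the start of 3 of them are printed to show the kinds of start found in the window: Ttll12, the nearest neighbour after Tspo, and Desi1 and Nfam1, a higher and a lower gene of the comparison under LPS. They read 5′ to 3′ on the gene's own strand, with CpG dinucleotides in capitals. Of the 3 Nfam1 starts in the table, the one nearest the annotated gene start is shown.
Ttll12, chr15:83595158-83595407, minus strand: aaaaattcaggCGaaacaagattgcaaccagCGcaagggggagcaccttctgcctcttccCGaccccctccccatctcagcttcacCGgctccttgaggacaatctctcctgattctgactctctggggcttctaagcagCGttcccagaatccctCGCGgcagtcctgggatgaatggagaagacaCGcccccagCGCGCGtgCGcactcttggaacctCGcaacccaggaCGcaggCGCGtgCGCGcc
Desi1, chr15:82016221-82016470, minus strand: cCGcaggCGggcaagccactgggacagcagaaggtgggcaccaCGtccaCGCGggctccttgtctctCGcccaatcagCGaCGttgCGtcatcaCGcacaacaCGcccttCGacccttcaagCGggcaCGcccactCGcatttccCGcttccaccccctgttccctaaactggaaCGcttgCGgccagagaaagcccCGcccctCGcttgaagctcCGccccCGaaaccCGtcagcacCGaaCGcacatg
Nfam1, chr15:83033398-83033647, minus strand: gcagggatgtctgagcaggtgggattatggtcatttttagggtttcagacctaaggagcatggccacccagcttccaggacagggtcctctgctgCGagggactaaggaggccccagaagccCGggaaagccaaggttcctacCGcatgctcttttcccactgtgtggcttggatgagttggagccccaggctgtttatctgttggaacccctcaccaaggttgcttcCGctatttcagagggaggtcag
The Ttll12 stretch holds 18 CpG and the Desi1 stretch 25, while the Nfam1 stretch holds 4. The Desi1 stretch lies inside the annotated bounds of Desi1 (81992523 to 82033862), away from the annotated gene start. It also overlaps the stretch before an Xrcc6 start on the plus strand (82016119 to 82016368), so its CpG are not those of Desi1 alone. The median was 14 over the 83 starts of the neighbours and 6 over the 32851 starts of the whole table. The neighbours are protein-coding genes kept by a count filter, while the whole table was not filtered so. No matched set was read, so the difference is not shown to be a trait of the window. The printed start of Nfam1, an immune receptor gene, falls below both medians.

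Tspo was read first as the check of the labels. It stood at 2.52, 2.59, 2.06 and 5.17 CPM in wild-type PBS replicates 1 to 4 and at 2.63, 11.9, 9.40 and 10.1 CPM in wild-type LPS. In the knockout it stood at 2.33, 0.152, 0.280 and 0.470 CPM with PBS and at 0.487, 0.366, 0.274 and 0.209 CPM with LPS. The library labelled knockout PBS replicate 1 thus lay inside the wild-type PBS range and goes against its label. Every direction under PBS and in the mean of both treatments is drawn with it, and the numbers of neighbours called without it are given beside those comparisons. It also enters LPS against PBS in knockout and the interaction, where the counts without it are not given singly.

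Neither of the genes that flank Tspo differed between knockout and wild type past the threshold in edgeR. Mcat (ENSMUSG00000048755; 83546797 to 83563787, minus strand), the mitochondrial malonyl-CoA transferase of fatty acid synthesis, starts head to head with Tspo (83563592 to 83574203, plus strand). The bounds of the 2 genes share 196 bases and their exons 53 bases, which is 2.15% of the Mcat exon length; the counting is not stated to use strand, so reads from those bases cannot be told apart. Mcat stood at 12.5, 12.03, 11.4 and 14.4 CPM in wild-type PBS and at 12.9, 13.98, 13.4 and 13.3 CPM in knockout PBS. It stood at 12.8, 13.6, 14.6 and 13.6 CPM in wild-type LPS and at 11.9, 11.6, 12.4 and 10.6 CPM in knockout LPS. The genotypes overlapped under PBS, and under LPS all 4 knockout libraries lay below all 4 wild-type libraries. Over both treatments the Mcat log2 fold change, knockout against wild type, was -0.07 ± 0.06 (SE; 95% interval -0.19 to 0.05; adjusted p = 0.553). Under LPS it was -0.23 ± 0.08 (adjusted p = 0.0678), a difference that missed the threshold of 0.05. That call depends on the setting: among others, the adjusted p was 0.0360 with DESeq2 and 0.00983 with limma-voom and sample quality weights, and 0.0354 in edgeR without wild-type LPS replicate 1, at log2 fold changes of -0.23, -0.27 and -0.26.

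Ttll12 (ENSMUSG00000016757; 83575090 to 83595157, minus strand), a tubulin tyrosine ligase-like protein, ends tail to tail with Tspo, 887 bases past the end of the Tspo gene. Ttll12 stood at 17.1, 14.6, 14.2 and 17.5 CPM in wild-type PBS, at 17.99, 12.6, 14.9 and 14.98 CPM in wild-type LPS, at 15.2, 14.3, 17.4 and 16.2 CPM in knockout PBS and at 16.9, 14.2, 16.6 and 15.2 CPM in knockout LPS. All 4 groups overlapped. The Ttll12 log2 fold change over both treatments was 0.02 ± 0.08 (95% interval -0.14 to 0.19; adjusted p = 0.908).

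**Figure D1:**
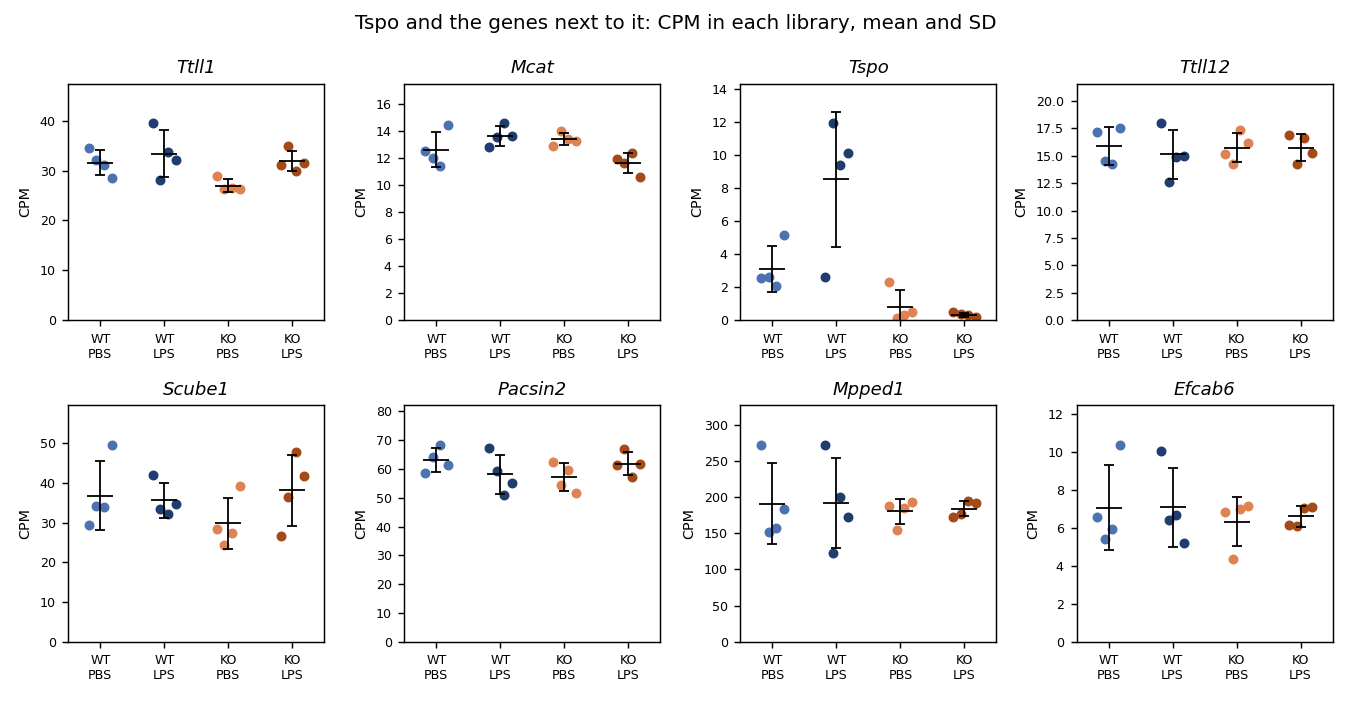
CPM (y axis, from 0) of Tspo and 7 of its nearest neighbours in each library (points), with the mean and SD of the 4 libraries of a group (bars); groups are wild type (WT) and Tspo knockout (KO) with PBS or LPS. Tspo is below 0.5 CPM in 7 of the 8 libraries labelled knockout, while Mcat and Ttll12 stay between 10.6 and 17.99 CPM in every group.

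Farther out, Ttll1 (83483769 to 83510893), a tubulin polyglutamylase of cilia and neurons, was the nearest gene whose interval over both treatments left out 0. Ttll1 stood at 34.6, 32.1, 31.1 and 28.5 CPM in wild-type PBS and at 29.0, 26.2, 26.6 and 26.2 CPM in knockout PBS. The highest knockout PBS library was the one labelled replicate 1, and it alone overlapped wild type. Under LPS the groups overlapped, with Ttll1 at 33.4 ± 4.73 CPM in wild type and 31.9 ± 2.10 CPM in knockout (mean ± SD, n = 4 each). The Ttll1 log2 fold change was -0.23 ± 0.09 under PBS (adjusted p = 0.918) and -0.14 ± 0.06 over both treatments (95% interval -0.28 to -0.01; adjusted p = 0.270), so it did not pass; leaving out the knockout PBS library labelled replicate 1 gave -0.26 under PBS (adjusted p = 0.858).

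On the same side, Pacsin2, a membrane-bending F-BAR protein, had a log2 fold change over both treatments of -0.03 ± 0.06. Arfgap3, a regulator of Golgi coat vesicles, had one of -0.10 ± 0.04 (adjusted p = 0.293), passing over both treatments with limma-voom (-0.14, adjusted p = 0.0326) and under LPS with limma-voom (-0.20, adjusted p = 0.0180) and without wild-type LPS replicate 1 (-0.21, adjusted p = 0.0179). A4galt, the enzyme that makes globotriaosylceramide, stood at 0.865 to 2.76 CPM over all libraries and had one of -0.41 ± 0.20 (95% interval -0.84 to 0.02). On the other side, Scube1, a secreted and membrane-bound EGF-repeat protein, stood at 36.9 ± 8.80 CPM in wild-type PBS, 29.8 ± 6.51 in knockout PBS, 35.7 ± 4.44 in wild-type LPS and 38.2 ± 9.01 in knockout LPS. Its log2 fold change over both treatments was -0.10 ± 0.14. Mpped1, a brain metallophosphoesterase-domain protein, had its 2 highest values in wild-type replicate 1 of each treatment (272 CPM in both), against 122 to 200 CPM in the other 14 libraries, and a log2 fold change of -0.07 ± 0.15. Both of those libraries were also the ones low in choroid plexus markers (scores of -4.46 and -4.35). Efcab6, an EF-hand protein, and Sult4a1, a brain sulfotransferase, gave -0.13 ± 0.16 and -0.04 ± 0.05. None of these 7 genes passed in edgeR over both treatments.

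Over the whole window, no neighbour differed between knockout and wild type when both treatments were weighted equally. Of the 78 neighbours tested (Grap2, an adaptor of T cell signalling with at most 11 counts in a library, was too low to test), 0 passed an adjusted p of 0.05, against a background of 0.916% of all 16269 genes tested (149 genes). At an unadjusted p under 0.05 there were 11 neighbours, or 14.1%, against a background of 16.7%. The smallest adjusted p was 0.115, for St13, an Hsp70 co-chaperone. In no neighbour did the 8 knockout libraries lie wholly above or below the 8 wild-type libraries; the background was 0.123%.

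The count of 0 rests on the test and on 1 library. DESeq2 called 1 neighbour, Tob2 (log2 fold change -0.32, adjusted p = 0.0448), where it called 4.83% of all genes, and limma-voom with sample quality weights called 8, or 10.3%, where it called 12.3% of all genes. Without wild-type LPS replicate 1, edgeR called 6 neighbours (Cyb5r3, Nfam1, Snu13, St13, Tob2, Ttc38), or 7.59%, where it called 9.89% of all genes. In each of these settings the share among the neighbours lay below the share among all genes. Without the library labelled knockout PBS replicate 1, edgeR called 0 of 79 neighbours and 0.152% of all genes; 9 neighbours, or 11.4%, had an unadjusted p under 0.05 against 15.9%, and the smallest adjusted p was 0.176.

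How large a change the data leave room for can be read from the intervals. Over both treatments the 95% interval lay within 0.5 log2 of 0 for 68 of 78 neighbours, or 87.2%, against 73.4% of all genes tested, and within 1 log2 for 73 (93.6%, background 90.8%). Under PBS it lay within 0.5 for 58 (74.4%, background 64.9%), and under LPS for 53 (67.9%, background 57.7%). The median size of the log2 fold change over both treatments was 0.07 for the neighbours, 0.08 for the other 533 chromosome 15 genes tested and 0.08 for all genes. Among the 58 neighbours with a mean of at least 10 CPM, the largest size was 0.32, for Tob2. The spread between libraries was alike, with a median within-group SD of log2 CPM of 0.147 for the neighbours and 0.164 for all genes.

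**Figure D2:**
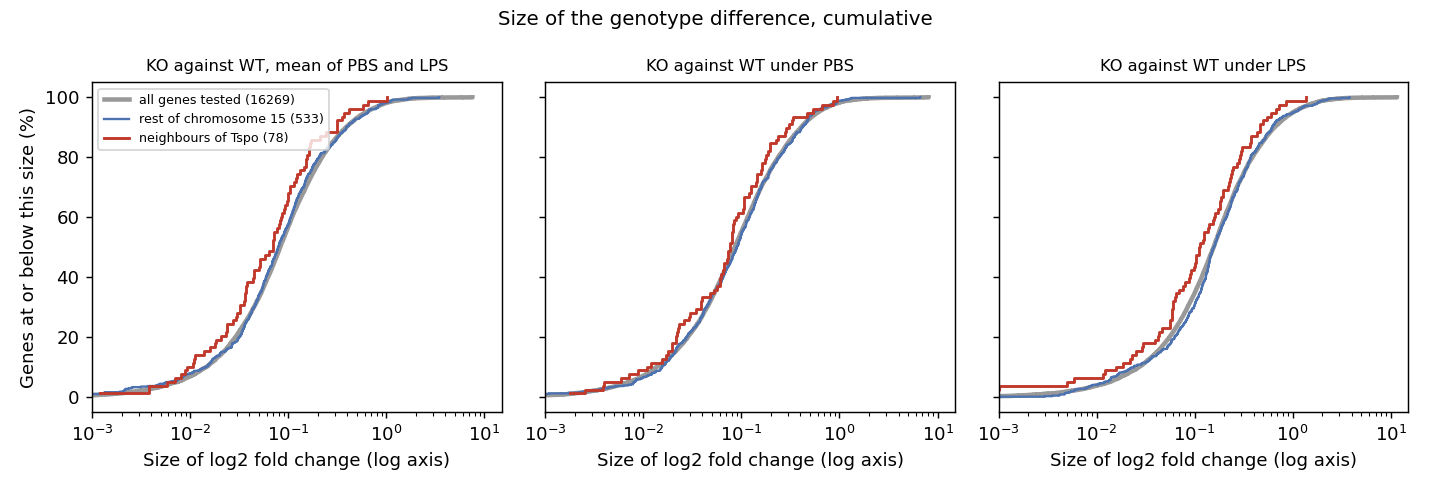
Share of genes (y axis, percent) at or below each size of the log2 fold change between knockout and wild type (x axis, log scale), for the neighbours of Tspo, the rest of chromosome 15 and all genes tested, in 3 comparisons. The curve of the 78 neighbours lies at or to the left of the other curves over most of its range, with medians of 0.07, 0.08 and 0.11 against 0.08, 0.09 and 0.16 for all genes.

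Under PBS, where the knockout is compared with wild type without inflammation, 0 of 78 neighbours passed, against a background of 0.0369% (6 genes of the whole table). At an unadjusted p under 0.05 there were 2 neighbours, Shisal1 and Ttll1, or 2.56%, against 5.17%. Tspo itself did not pass in edgeR under PBS either (log2 fold change -1.89 ± 0.65, unadjusted p = 0.0106, adjusted p = 0.9185). It passed over both treatments (-3.27 ± 0.48, adjusted p = 0.00868) and under LPS (-4.64 ± 0.73, adjusted p = 0.00308). The count of 0 under PBS thus does not show that no neighbour differed. DESeq2 called 0 neighbours and 0.111% of all genes. The 2 neighbours that limma-voom called, or 2.56% where it called 1.89% of all genes, were Celsr1 (0.54, adjusted p = 0.0469), a cadherin of planar cell polarity, and Shisal1 (-0.73, adjusted p = 0.0415). Groups did not overlap in 5 neighbours (Rangap1, Mei1, Sult4a1, Parvb and Shisal1), or 6.41%, against a background of 3.28%; all 5 were lower in the knockout, where the background is 1.82%. The share was not tested against the background. The summed level of the 3 endothelial markers, all above 0 in every library, was also lower in knockout PBS. It ran from 90.95 to 109.9 CPM there and from 116.5 to 155.6 CPM in wild-type PBS. Singly, Pecam1 stood apart, while Cldn5 and Flt1 overlapped. The summed level of the 4 LPS response genes was lower too (4.96 to 6.63 against 6.74 to 7.89 CPM, all above 0 in both groups). Singly, all 4 of them (Lcn2, Ifit1, Gbp2 and Icam1) overlapped. The part of these markers in the differences of the neighbours was not tested. Leaving out the library labelled knockout PBS replicate 1, edgeR again called 0 neighbours (0.0303% of all genes), with 4, or 5.06%, at an unadjusted p under 0.05 against 5.71% and a smallest adjusted p of 0.858. Groups then did not overlap in 6 neighbours, the same 5 and Ttll1, all lower in the knockout, or 7.69% against 3.72% of all genes in that direction.

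The 5 that stood apart under PBS did so by small margins, and none kept its groups apart under LPS in the same direction. Sult4a1 stood at 354 ± 6.88 CPM in wild-type PBS and 329 ± 11.4 CPM in knockout PBS (mean ± SD, n = 4 each), with the nearest libraries at 348 and 339 CPM; under LPS it stood at 346 ± 38.9 and 353 ± 29.8 CPM. Parvb, an actin-binding partner of integrin-linked kinase, stood at 27.6, 28.0, 28.5 and 29.7 CPM in wild-type PBS against 23.4, 25.5, 24.0 and 26.5 CPM in knockout PBS. Rangap1, the GTPase activator of nuclear transport, stood at 232 ± 17.8 against 207 ± 12.2 CPM. Mei1, a meiotic gene, was low in both (1.58 ± 0.108 against 1.14 ± 0.197 CPM). The fifth, Shisal1, is taken up below, because it lay the other way under LPS.

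The LPS-injected groups differed in the LPS response itself. The score of the LPS response genes ran from -0.52 to 0.24 in knockout LPS, beside -0.16 to 0.27 in wild-type PBS. In wild-type LPS it ran from 0.71 to 4.98. By these genes, wild-type libraries with a response were thus set against knockout libraries without a clear one. The part of this difference in the genotype calls under LPS was not tested. Between the LPS-injected groups, 9 of 78 neighbours differed between knockout and wild type, 4 higher and 5 lower in the knockout. That is 11.5% of the neighbours, against 11.9% of all genes tested (1935 genes), and 11.4% of the other chromosome 15 genes (15 higher and 46 lower of 533), so the share was near the background. Higher genes were 5.13% against 4.61% of all, and lower genes 6.41% against 7.28%. Groups did not overlap in 11 neighbours, or 14.1%, against 14.3%, and 20 neighbours, or 25.6%, had an unadjusted p under 0.05 against 28.5%. The sizes ran from 0.18 to 0.72 on the log2 scale.

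The 5 lower genes were Nfam1, Ttc38, Cyb5r3, Tob2 and L3mbtl2. Nfam1, an ITAM-bearing receptor of B cells and myeloid cells, stood at 3.51, 7.90, 6.70 and 6.94 CPM in wild-type LPS and at 4.35, 3.85, 3.45 and 3.55 CPM in knockout LPS. The PBS libraries stood between 2.82 and 3.74 CPM. Wild-type LPS replicate 1 lay at the PBS level and the other 3 wild-type LPS libraries above every other library of the series. The Nfam1 log2 fold change, knockout against wild type under LPS, was -0.72 ± 0.19 (adjusted p = 0.0277), and without wild-type LPS replicate 1 it was -0.92.

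Ttc38, a tetratricopeptide-repeat protein, had the same order, at 7.57, 14.5, 12.6 and 9.81 CPM in wild-type LPS against 6.56 to 8.19 CPM in knockout LPS (-0.55 ± 0.15, adjusted p = 0.0335). Cyb5r3, the NADH-cytochrome b5 reductase that serves fatty acid desaturation and cholesterol synthesis, stood at 55.5, 91.0, 75.0 and 88.6 CPM in wild-type LPS against 62.4, 50.4, 64.9 and 47.3 CPM in knockout LPS (-0.46 ± 0.14, adjusted p = 0.0480). Tob2, an antiproliferative protein that binds the mRNA deadenylase complex, stood at 30.1, 58.0, 43.6 and 44.0 CPM against 31.3, 31.4, 30.2 and 34.8 CPM (-0.46 ± 0.14, adjusted p = 0.0425). Wild-type LPS replicate 1 lay among the knockout LPS libraries in Ttc38 and Cyb5r3 and just below them in Tob2, and the other 3 wild-type libraries lay above them in all 3 genes. L3mbtl2, a subunit of a Polycomb-type repressor complex, was the exception in having groups that did not overlap: it stood at 41.7, 42.7, 42.3 and 42.8 CPM in wild-type LPS against 38.6, 37.2, 37.7 and 36.0 CPM in knockout LPS (-0.18 ± 0.05, adjusted p = 0.0265). L3mbtl2 shares 17.2% of its exon bases with Chadl, so part of its reads cannot be assigned to it with certainty.

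The 4 higher genes were St13, Desi1, 5031439G07Rik and Shisal1, and in each of them all 4 knockout LPS libraries lay above all 4 wild-type LPS libraries. St13 stood at 157, 128, 126 and 134 CPM in wild-type LPS against 163, 170, 166 and 173 CPM in knockout LPS (0.30 ± 0.07, adjusted p = 0.0109), with the PBS groups at 159 ± 9.62 and 159 ± 4.87 CPM. Desi1, a deSUMOylating peptidase, stood at 111, 116, 89.1 and 89.3 CPM against 127, 135, 129 and 133 CPM (0.37 ± 0.09, adjusted p = 0.0198). The gene 5031439G07Rik stood at 163, 156, 155 and 155 CPM against 193, 194, 165 and 220 CPM (0.30 ± 0.08, adjusted p = 0.0287). Without any one of the 16 libraries St13 kept its call, and it lost it only in a fit of the 8 libraries compared (adjusted p = 0.0621). The other calls were less stable. Of the 26 alternatives run, Desi1 kept its call in 23, L3mbtl2 and Ttc38 in 19 each, Nfam1 and 5031439G07Rik in 18 each, Shisal1 in 15, Tob2 in 13 and Cyb5r3 in 10. Without the library labelled knockout PBS replicate 1, 7 neighbours passed, or 8.86% against 11.4% of all genes; Cyb5r3 (adjusted p = 0.0597) and Shisal1 (adjusted p = 0.0523) did not.

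Shisal1, a shisa-like membrane protein, was the neighbour in which the genotype difference changed sign with treatment. It stood at 80.9, 134, 134 and 81.5 CPM in wild-type PBS and at 79.4, 66.9, 75.6 and 74.4 CPM in knockout PBS. Under LPS it stood at 66.3, 54.3, 45.2 and 69.8 CPM in wild type and at 89.5, 103, 94.5 and 70.1 CPM in knockout. Knockout libraries were thus the lower ones under PBS and the higher ones under LPS. The nearest libraries of the 2 genotypes were at 79.4 and 80.9 CPM under PBS and at 69.8 and 70.1 CPM under LPS. The log2 fold change was -0.54 ± 0.18 under PBS (adjusted p = 0.918) and 0.60 ± 0.18 under LPS (adjusted p = 0.0437), and the interaction of genotype and treatment was 1.14 ± 0.26 (adjusted p = 0.04997). Shisal1 was the only neighbour past the threshold in that interaction, 1.28% of the neighbours against 1.15% of all genes, and RLE scaling, another filter or leaving out most single libraries took the call away (7 of 25 alternatives kept it). The 2 wild-type PBS libraries at 134 CPM, replicates 2 and 3, were the closest pair within a group. The mean chi-square per gene between their counts was 3.78, against 12.27 or more in the other pairs. They may therefore not count as 2 separate observations, and the other wild-type PBS libraries (80.9 and 81.5 CPM) lay near the highest knockout PBS library (79.4 CPM). The same 2 libraries had a positive score for 7 thalamus and cerebellum markers (0.64 and 0.59, while the other wild-type PBS libraries had -0.19 and -1.04). All 7 were above 0 in both, at a summed 582 and 595 CPM. Under LPS the score of the same markers stood apart by genotype, as Shisal1 did, at -1.37 to -0.77 in wild type and -0.51 to 0.18 in knockout. Singly, Lef1 and Rora stood apart, while Prkcd, Tcf7l2, Pcp2, Cbln1 and Gabra6 overlapped. Cbln1 was highest in wild type (15.9 CPM in replicate 1, against at most 9.165 CPM in knockout LPS). The summed level of the 7 markers was 98.9, 82.3, 102 and 141 CPM in wild-type LPS replicates 1 to 4 and 226, 407, 264 and 175 CPM in knockout LPS, with 1 of 7 at 0 in 3 and 2 of these libraries. Within knockout LPS Shisal1 had the same order of libraries as that level, and within wild-type LPS it did not. Nor did it within knockout PBS, where replicate 2 had the highest score of the series (2.65, a summed 537 CPM) and the lowest Shisal1 of its group (66.9 CPM). The score pools unlike markers. Gabra6 stood at 114 CPM in that library and at 0.0905 and 0.0332 CPM in wild-type PBS replicates 2 and 3, while Prkcd stood at 60.1 CPM against 294 and 299 CPM. The part of these markers in the Shisal1 difference was not tested.

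**Figure D3:**
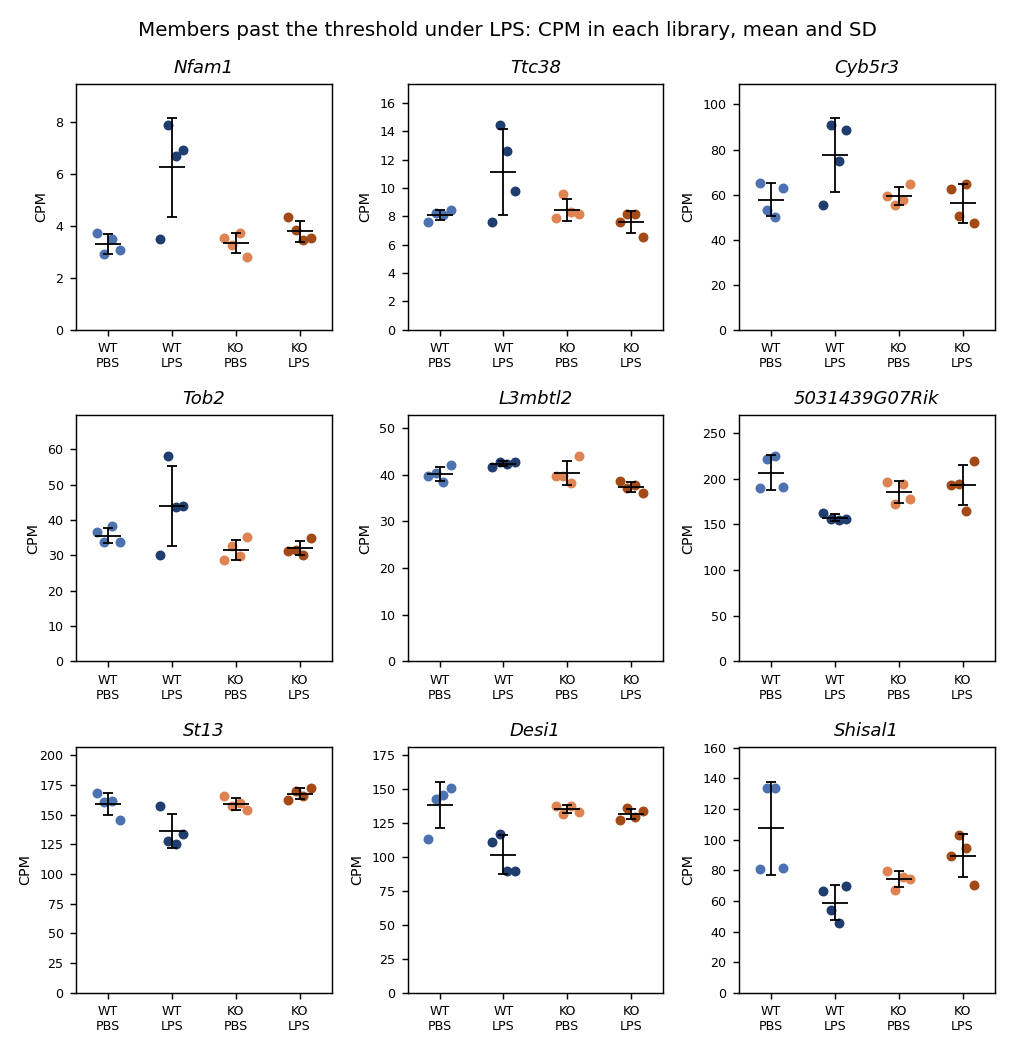
CPM (y axis, from 0) of the 9 neighbours past an adjusted p of 0.05 between knockout and wild type under LPS, in each library (points), with the mean and SD of the 4 libraries of a group (bars). In Nfam1, Ttc38, Cyb5r3 and Tob2, 3 of the 4 wild-type LPS libraries lie above the knockout LPS libraries, and in St13, Desi1, 5031439G07Rik and Shisal1 all 4 lie below them.

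All 9 genes called under LPS had the opposite sign in LPS against PBS within wild type, a comparison that shares the wild-type LPS libraries with the one above; the values are set side by side only for that reason. There the log2 fold changes were 0.93 for Nfam1 (adjusted p = 0.0112), -0.22 for St13 (0.0450), -0.45 for Desi1 (0.0105), -0.39 for 5031439G07Rik (0.00967) and -0.87 for Shisal1 (0.0106), and these 5 of 78 neighbours passed, 6.41% against 8.57% of all genes. The other 4 did not pass: Ttc38 had 0.46, Cyb5r3 0.42, Tob2 0.31 and L3mbtl2 0.08. Between knockout LPS and knockout PBS 0 neighbours passed, as did 0.0% of all genes in edgeR; DESeq2 called 0 neighbours, and 8 neighbours, or 10.3%, had an unadjusted p under 0.05 against 6.88% of all genes. Groups did not overlap in 9 neighbours there, or 11.5%, against 6.55%. Among them, Ttll1, Rangap1, Zc3h7b, Chadl and Tnfrsf13c were higher with LPS (log2 fold changes of 0.24, 0.17, 0.08, 0.24 and 1.11), and Mcat, Smdt1 and Xrcc6 lower (-0.20, -0.08 and -0.16). These values include the library labelled knockout PBS replicate 1, the highest of its group in Ttll1 and Smdt1. The oligodendrocyte markers (4 of 4 above 0 in every library) had a summed 1341 to 3373 CPM in wild-type LPS, against 3145 to 4040 in wild-type PBS, 2882 to 3766 in knockout PBS and 3161 to 3502 in knockout LPS. The 3 leukocyte markers, all above 0 in wild-type LPS and 1 or 2 of them at 0 in 5 libraries of the other groups, had a summed 0.519 to 13.1 CPM there, 0.232 to 0.551 in wild-type PBS, 0.056 to 0.364 in knockout PBS and 0.073 to 1.56 in knockout LPS. In bulk tissue fewer cells of a type and less RNA per cell cannot be told apart, and the part of these markers in the 9 differences was not tested.

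The number of neighbours called under LPS turned on single libraries, as did the number over all genes. Without wild-type LPS replicate 1, the library with the weak LPS response, edgeR called 21 neighbours, or 26.6%, where it called 24.3% of all genes; these included Rangap1, Snu13, Mrtfa and Mcat beside the 9. Without wild-type LPS replicate 2, 3 or 4 it called 2, 1 and 2 neighbours (2.53%, 1.27% and 2.53%, against 6.64%, 5.23% and 5.85% of all genes), and St13 was among them each time. Without knockout LPS replicate 1, 2, 3 or 4 it called 4, 3, 3 and 3 (5.06%, 3.8%, 3.85% and 3.85%, against 9.27%, 7.72%, 6.28% and 8.02%). The neighbours' share was thus below that of all genes in these 7 settings and above it without wild-type LPS replicate 1. A fit of only the 8 LPS libraries called 0 neighbours and 2.74% of all genes, and limma-voom called 18, or 23.1%, where it called 25% of all genes.

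The genes called under LPS lay across the whole window, not next to Tspo. The 9 called genes started at -2.20 Mb (St13), -1.90 (L3mbtl2), -1.72 (Tob2), -1.57 (Desi1), -0.57 (Nfam1), -0.41 (Cyb5r3), 0.82 (Shisal1), 1.38 (5031439G07Rik) and 2.27 Mb (Ttc38) from the Tspo start, negative values lying before it. Higher and lower genes thus lay on both sides. By distance, 1 of 13 neighbours within 0.5 Mb passed under LPS (Cyb5r3), 2 of 9 between 0.5 and 1 Mb, 4 of 36 between 1 and 2 Mb and 2 of 20 beyond. The 3 Mb on the far side before the window held 1 higher and 11 lower genes of 74, or 16.2%, and the 3 Mb after it 4 lower genes of 31, or 12.9%.

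The median size of the log2 fold change over both treatments was 0.0959 within 0.5 Mb, the largest of the 4 distances, then 0.0444 between 0.5 and 1 Mb, 0.061 between 1 and 2 Mb and 0.0801 beyond. Under PBS it fell by small steps with distance, at 0.087, 0.0806, 0.078 and 0.0689, beside 0.0855 for all genes, and under LPS it was smallest next to Tspo, at 0.0878, 0.1388, 0.1455 and 0.1128, beside 0.1562. The nearer 2 of these distances hold 13 and 9 genes, and the order of the medians was not tested. Across the 78 neighbours Spearman's rho between the size and the distance was -0.05 over both treatments, -0.18 under PBS and 0.07 under LPS (Pearson's r -0.01, -0.13 and 0.09); the genes share libraries and are no independent replicates. Adjacent neighbours scarcely varied together, with a median correlation of their deviations from the group means of 0.05 over 77 adjacent pairs and 0.01 over all 3003 pairs.

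**Figure D4:**
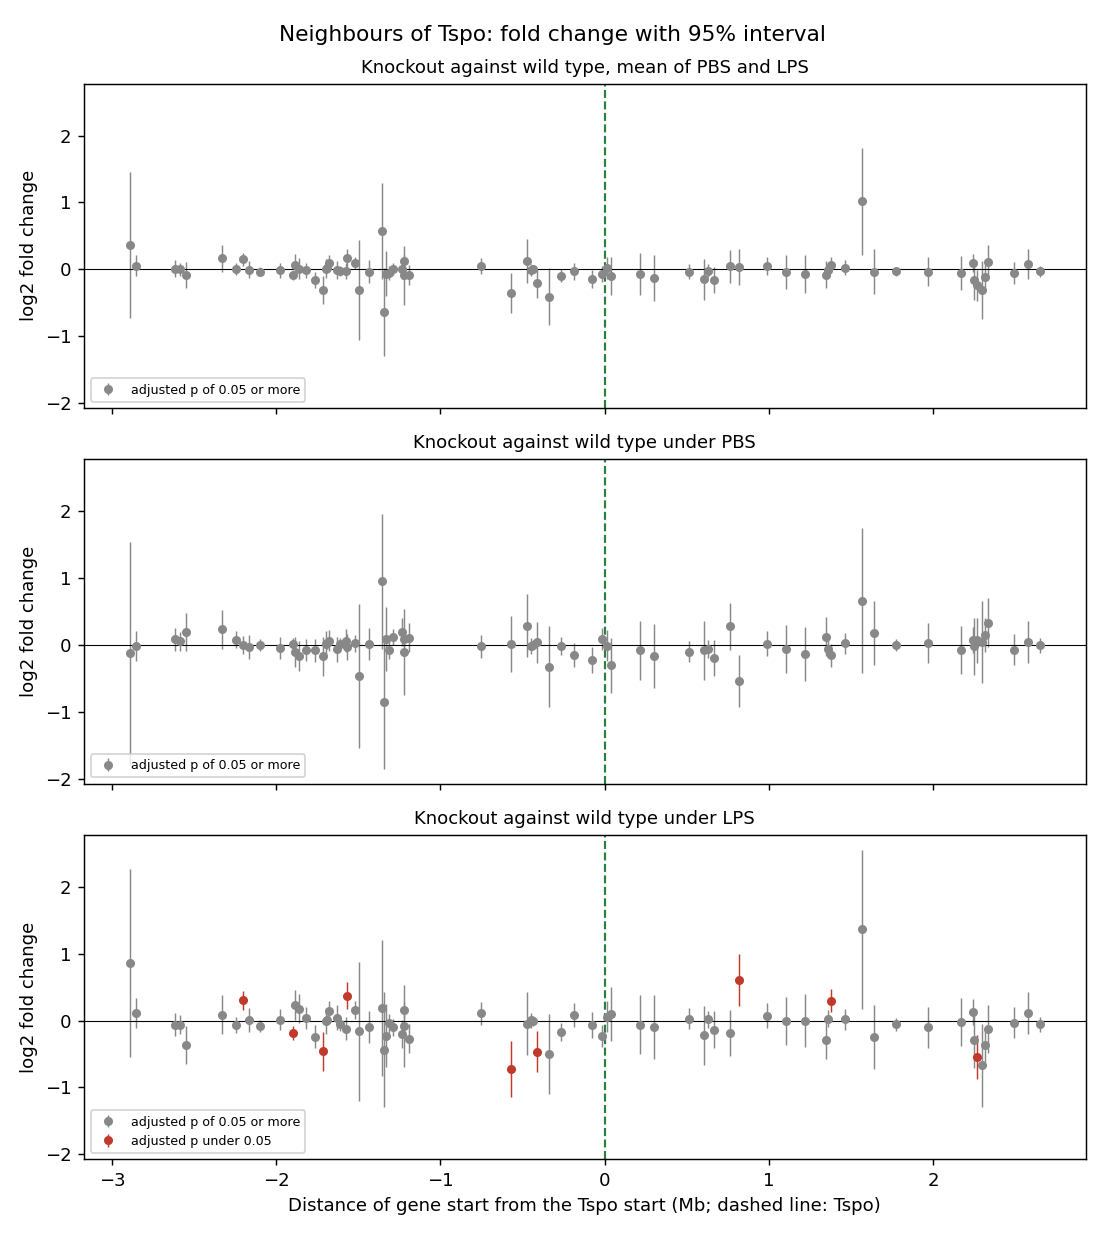
Log2 fold change of each neighbour between knockout and wild type (y axis, points with 95% intervals) against the distance of its start from the Tspo start (x axis, Mb; dashed line at Tspo), for both treatments together, PBS and LPS. Red points passed an adjusted p of 0.05: 0, 0 and 9 genes, the 9 spread from -2.20 to 2.27 Mb, with Cyb5r3 the nearest to Tspo at -0.41 Mb.

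The neighbours were also grouped by textbook role. The groups are small, and their counts were not tested against the shares of all genes called, 0.916% over both treatments, 0.0369% under PBS and 4.61% higher and 7.28% lower under LPS. The 6 mitochondrial genes, of interest because Tspo itself is a mitochondrial protein, had 0 called in the comparisons of genotype, with a median log2 fold change of -0.01 over both treatments. Samm50, of the outer membrane assembly machinery, had -0.02 ± 0.04. Smdt1, a regulator of the mitochondrial calcium uniporter, had 0.12 ± 0.04 (adjusted p = 0.164) and all 4 knockout LPS libraries above wild type (36.8 to 37.4 against 32.0 to 35.3 CPM; 0.15 ± 0.06, adjusted p = 0.112). Trmu, a mitochondrial tRNA-modifying enzyme, lay the other way under LPS (9.38 to 14.4 against 14.96 to 16.7 CPM; -0.37 ± 0.12, adjusted p = 0.0541), passing, among others, with DESeq2 (adjusted p = 0.0247) and without wild-type LPS replicate 1 (adjusted p = 0.0364).

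Of the 19 genes of transcription, chromatin and RNA, 0 passed over both treatments or under PBS and 2 were lower under LPS (L3mbtl2 and Tob2), with a median of -0.02 over both treatments. Tef, a PAR bZIP factor whose RNA follows the circadian clock in many tissues, stood at 408 ± 32.4 CPM in wild-type LPS and 345 ± 7.64 CPM in knockout LPS with no overlap (-0.24 ± 0.08, adjusted p = 0.0644). Tef passed under LPS with DESeq2 (adjusted p = 0.0342), with limma-voom (0.013) and in edgeR without wild-type LPS replicate 1 (0.0469), wild-type PBS replicate 1 (0.0225) or wild-type PBS replicate 4 (0.0400), and over both treatments with limma-voom (-0.15, adjusted p = 0.0449). Zc3h7b, an RNA-binding zinc finger protein, stood at 221 ± 30.8 and 227 ± 4.02 CPM. The 7 genes of protein handling, ubiquitin and SUMO held 2 higher genes under LPS (St13 and Desi1), while the median of the group was -0.06 there. The 10 metabolic and lipid genes held 1 lower gene (Cyb5r3). Cerk, the ceramide kinase, stood at 111 CPM in knockout PBS replicate 2 and at 61.0 to 82.6 CPM in the other 15 libraries.

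The 12 genes of adhesion, cytoskeleton and membrane traffic had 0 called in either direction in each comparison of genotype. Sept3, a neuronal septin, stood at 541 ± 29.4 CPM in wild-type PBS, 588 ± 32.6 in knockout PBS, 601 ± 29.6 in wild-type LPS and 559 ± 25.8 in knockout LPS, a difference over both treatments of 0.01 ± 0.04. The 6 genes of cilium, centriole and tubulin modification also had 0 called, though the group held the largest single value, 1.01 ± 0.38 over both treatments for Ribc2 (adjusted p = 0.188), a ciliary microtubule protein at 0.0305 to 0.586 CPM. With limma-voom Ribc2 passed (1.09, adjusted p = 0.02795). Its lowest values of each wild-type group, 0.116 CPM under PBS and 0.0305 CPM under LPS, lay in replicate 1. These 2 libraries had the lowest ependyma and motile cilia scores (-2.68 and -2.50, with 2 and 1 of 4 markers at 0), against -0.09 to 1.68 in the other 14. The summed level of these markers ran from 6.41 to 42.7 CPM in wild-type PBS, 4.37 to 36.5 in wild-type LPS, 21.1 to 36.7 in knockout PBS and 23.5 to 30.4 in knockout LPS, and their part in the Ribc2 difference was not tested.

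Of the 4 immune genes 3 could be tested and 1 passed, Nfam1. Parvg, a leukocyte parvin, stood at 8.47 ± 1.14 CPM in wild-type PBS, 10.3 ± 1.297 in knockout PBS, 9.81 ± 2.25 in wild-type LPS and 8.62 ± 1.29 in knockout LPS. Tnfrsf13c, the BAFF receptor of B cells, was low, at 0.0910 to 0.550 CPM. Of the 8 synaptic or neuronal genes 1 passed under LPS, Shisal1. Mchr1, a receptor of melanin-concentrating hormone, stood at 13.5 ± 1.125 CPM in wild-type PBS, 15.9 ± 3.59 in knockout PBS, 15.9 ± 1.58 in wild-type LPS and 16.9 ± 1.36 in knockout LPS.

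Shisa8, an auxiliary subunit of AMPA receptors, had the largest size under PBS, 0.95 ± 0.47 (adjusted p = 0.918), and it came from 1 library. Shisa8 stood at 12.1 CPM in knockout PBS replicate 2 and at 1.54 to 3.13 CPM in the other 15 libraries. That library had the highest thalamus and cerebellum score (2.65, all 7 markers above 0, against at most 0.64 elsewhere) and held Gabra6, a cerebellar granule cell receptor subunit, at 114 CPM, where no other library exceeded 0.232 CPM. The summed level of the 7 markers ran from 99.0 to 595 CPM in wild-type PBS, 82.3 to 141 in wild-type LPS, 71.5 to 537 in knockout PBS and 175 to 407 in knockout LPS; their part in the Shisa8 value was not tested.

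Levels differed far more between neighbours than between genotypes. Per kb of exon, the mean over all 16 libraries ran from 0.0324 CPM (Grap2) to 138 CPM (Sult4a1), with a median of 6.74. Atxn10, the ataxin-10 gene, stood at 96.8 and Sept3 at 86.4 CPM per kb. Exons of 15 neighbours overlap those of another listed gene, in 5 of them over more than 10% of the exon bases. These include L3mbtl2 and Chadl with each other (17.2% and 19.5%), Smdt1 with Pheta2 (16.6%) and Rrp7a with Serhl (12.5%).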

How the data were processed

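The 16 libraries of mouse hippocampus RNA, 4 per genotype and injection, were made with RNeasy extraction and NEBNext Ultra libraries per the labels' protocols; groups and replicate numbers come from the sample labels. The deposited table holds an estimated count per gene and library, all whole numbers; Salmon 1.9.0, MultiQC 1.13, DESeq and DESeq2 are named in the submitters' processing notes, with no roles. Aligner settings, annotation and genome build are not given in the sources used here. Positions and symbols came from GENCODE M21 on GRCm38, from which 105 identifiers (0.054% of counts) were absent.

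Counts were used as deposited. filterByExpr of edgeR 4.0.16 (R 4.3.3) kept 16269 genes with 99.97% of the counts. A quasi-likelihood model with 1 mean per group and TMM scaling was fitted to all 16 libraries (biological coefficient of variation 0.177), p-values were adjusted by Benjamini-Hochberg over all genes tested, and an adjusted p under 0.05 is a call. The SE is the size of the log2 fold change over the root of its F statistic. CPM uses scaled library totals. Groups do not overlap where every library of one lies above every library of the other. Errors come from the spread between libraries rather than from depth, and there are no molecular identifiers.

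The neighbours, role groups and marker lists were chosen with earlier results of these data known. Named, apart from items not reported here, are the genes called, the 5 nearest on each side of Tspo and, of each role group, the 2 highest and the 2 of smallest p; Mei1, Celsr1, Snu13, Mrtfa, Atxn10, Xrcc6, Pheta2, Chadl, Rrp7a, Serhl, Fam83f and Grap2 were also named, after their values were seen. Alternatives were RLE scaling, DESeq2 1.42.0, limma-voom (limma 3.58.1) with sample quality weights, 2 other filters, the replicate number as a block, only the 8 libraries compared, each library left out, and 3 further ones chosen after seeing the data. The fit was tested on simulated data.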

Additional observations from a re-analysis of the deposited data

Results flagged for a closer look

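In groups of 4 libraries, 11 of 136 group and gene combinations of the named neighbours held a library far from the other 3 (a gap above 0.829 of the group's range on the log2 CPM scale). The nominal rate is about 1 in 20 for independent values. The named genes share the same libraries and were partly picked by p. The count was not made over all genes, so no excess among the neighbours is read from it. Knockout PBS replicate 2 was such a library for Efcab6 (gap 0.91 of the range), Cerk (0.864) and Trmu (0.842), and its thalamus and cerebellum score was the highest of the series (2.65). The library labelled knockout PBS replicate 1 was such for Ttll1 (0.875) and Smdt1 (0.833), the highest of its group in both. Knockout LPS replicate 1 was such for Rangap1 (0.846), Shisa8 (0.842) and Tnfrsf13c (0.841). Wild-type LPS replicate 1 was such for 5031439G07Rik (0.957) and Zc3h7b (0.832), and wild-type LPS replicate 3 for Tef (0.939). In Shisal1 the genotype difference depended on treatment, with an interaction of 1.138 on the log2 scale (adjusted p = 0.04997, edgeR).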

How the results depend on the processing

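Under PBS the count of 0 neighbours called held in each edgeR alternative tried and in DESeq2, and limma-voom called 2. Over both treatments DESeq2 called 1 and limma-voom 8; leaving out single libraries gave 0 to 6. Under LPS, against 9, limma-voom called 18, the fit of the 8 libraries compared 0 and the replicate block 5, and leaving out single libraries gave 1 to 21. DESeq2 called the same 9 under LPS and also Mcat, Mrtfa, Tef and Trmu. Its count over all genes under LPS is not given here. LPS against PBS in wild type, against 5, gave 8 with DESeq2, 22 with limma-voom, 0 in the fit of 8 libraries and 4 to 13 without single libraries. The interaction, against 1, gave 0 with RLE scaling, with no filter, with the filter of CPM of at least 1 and with the replicate block, 5 with DESeq2, 21 with limma-voom and 0 to 13 without single libraries. Of the alternatives chosen after seeing the data, leaving out both the library labelled knockout PBS replicate 1 and wild-type LPS replicate 1 gave 3 over both treatments, 19 under LPS, 13 in wild type and 12 for the interaction. Leaving out replicate 1 of both wild-type groups gave 4, 21, 15 and 11, and summing wild-type PBS replicates 2 and 3, the closest pair of libraries, gave 0 for the interaction. The counts over all genes in these alternatives chosen later are not given here. Their counts of neighbours thus have no background beside them and are no result about the neighbours. Over all genes, the 149 called over both treatments became 828 with DESeq2, 1995 with limma-voom, 23 with the replicate block and 22 to 1633 without single libraries (1633 without wild-type LPS replicate 1). The 6 under PBS became 19, 308, 3 and 1 to 9, the 1935 under LPS became 4073 with limma-voom, 438 in the fit of 8 libraries and 858 to 4005 without single libraries, and the 1394 in wild type became 2131 with DESeq2, 4684 with limma-voom, 0 in the fit of 8 libraries and 538 to 3380. The 0 for LPS in knockout became 3 with DESeq2, and 1 without knockout PBS replicate 4. The 187 of the interaction became 63 with RLE scaling, 1300 with DESeq2, 4029 with limma-voom, 39 with no filter, 42 with the stricter filter, 0 with the replicate block and 0 to 2655. The labels do not say that equal numbers pair libraries: 10 of 24 same-numbered pairs had a correlation of their deviations over 0.1 (range -0.37 to 0.44), and 8 of 16 libraries correlated best with their own number. Among the 10 nearest genes, the sign over both treatments turned for Pacsin2 (0.016 with limma-voom; -0.059 to 0.00997 without single libraries, the highest without wild-type LPS replicate 1), Efcab6 (0.102 with limma-voom), Sult4a1 (0.00093 without replicate 1 of both wild-type groups) and Ttll12 (-0.0161 to 0.0709 without single libraries, below 0 without wild-type LPS replicate 2, at -0.0021 without wild-type PBS replicate 3 and at -0.0032 without knockout PBS replicate 3). Mpped1 turned to 0.0858 with limma-voom, ran from -0.154 to 0.0387 without single libraries (0.0373 without wild-type PBS replicate 1, the highest without wild-type LPS replicate 1), and stood at 0.0281 and 0.145 without the pairs of libraries above. The cause was not tested in any of these. Depth limited Grap2, Fam83f, Tnfrsf13c, Pheta2 and Ribc2, each below 1 CPM in every library.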
